A study of Mus musculus with 6 samples.

Results

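The genes described here are Yap1 and Wwtr1, the DNA-binding factors Tead1, Tead2 and Tead3, the inhibitors Lats2 and Amotl2, and the targets Ctgf, Cyr61 and Ankrd1. They were chosen by name, with earlier results of these data known. All 10 were found among the 13595 genes of the deposited table, where Ctgf and Cyr61 appear under these older symbols for Ccn2 and Ccn1. Expression was read by poly(A) RNA sequencing of CD31-selected cells, a surface marker of endothelium, grown from the livers of C57BL6/J mice aged 4 weeks. Of the 6 libraries, 3 are labelled male and 3 female, each group with replicates 4, 5 and 6. Every culture received 100 µM indoxyl sulfate, a tryptophan metabolite that activates the aryl hydrocarbon receptor, together with 6 hours of hypoxia without nutrients. The comparison is therefore of labelled sex under treatment, and neither the effect of indoxyl sulfate nor that of hypoxia was analysed here.

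YAP (gene Yap1) and TAZ (gene Wwtr1) are transcriptional coactivators that have no DNA-binding domain of their own. They reach DNA through the TEAD factors, which recognise the core sequence GGAATG. In the Hippo pathway the MST kinases activate the LATS kinases, which phosphorylate YAP and TAZ and so keep them out of the nucleus, and angiomotins bind and retain them in the cytoplasm. In endothelium the pathway is known for its response to cell stretch, flow and cell contact, and for its part in vessel growth. Because control of YAP and TAZ is largely at the level of protein location, transcript levels do not measure their activity.

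The libraries held from 22303270 to 31189363 reads over the genes of the table. Values are normalized read counts, in which 1 read was worth between 0.0353 and 0.0475. Male-labelled replicate 4 stood apart from the rest of its group: its chi-square statistic per gene, near 1 for sampling alone, was 43.6 and 45.4 against male-labelled replicates 5 and 6, where the other pairs within a group gave 4.35 to 9.59. Results are therefore also given without it. Xist followed the labels, at 234 to 324 in female-labelled and 0.124 to 0.458 in male-labelled libraries. Y-linked RNA did not: Ddx3y, Uty, Eif2s3y and Kdm5d were read in all 6 libraries, and Ddx3y stood at 48.5 to 57.7 in the female-labelled libraries and 47.2 to 76.3 in the male-labelled ones. Uty overlapped likewise, whereas Eif2s3y (29.4 to 30.2 against 55.3 to 61.2) and Kdm5d (17.6 to 20.8 against 30.7 to 37.5) fell (limma adjusted p 5.76e-06 and 0.000129). Whether the female-labelled cultures held cells of both sexes was not tested. Each direction below rests on these labels. The labels do not say whether replicates are mice, isolations or wells, so p-values cover only the spread between these samples, which may be technical. No batch is named either, and sex and any batch aligned with it cannot be told apart.

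Markers of the cell types in the cultures also differed between the groups, as shown in the plot of marker genes. The counts of markers called in this paragraph stand beside 69.3% of all 12568 tested genes called, 34.6% higher and 34.6% lower. Of 10 endothelial markers, 9 fell and 0 rose (limma adjusted p under 0.05) in the female-labelled libraries, and their summed level was 820.1 to 852 there against 2043 to 2126. Kdr, the marker not called, was low in both groups, at 2.34 to 3.61 against 3.19 to 3.96. Pecam1, which encodes CD31, was at 73.5 to 74.5 against 391 to 423 (log2 fold change -2.44), and Egfl7 (-3.81), Tie1 (-3.09) and Flt1 (-2.76) fell further. Among sinusoidal markers the scavenger receptor Stab2, Clec4g and Fcgr2b were under 1 in every library, and Mrc1 was near 1 in both groups. The summed level of the 6 genes was 7.08 to 8.84 against 489 to 528, and nearly all of the latter was Lyve1, at 469.7 to 513 in the male-labelled and 4.37 to 5.48 in the female-labelled libraries. Stab1, the other sinusoidal marker tested, also fell, by 2.49 on the log2 scale. Of the 13 mural, stellate and fibroblast markers in the table, 12 were tested, of which 5 rose and 7 fell, with sums of 3012 to 3744 and 932 to 1095. Most of the female-labelled sum was Acta2 and Tagln, the latter at 900.3 to 1179. Most of the male-labelled sum was Col1a1, at 535 to 575, which fell to 337 to 361. The contractile gene Acta2 was at 1513 to 1887 in female-labelled libraries, at 134 in male-labelled replicate 4, and at 56.4 and 45.9 in male-labelled replicates 5 and 6. Among those that fell were Pdgfrb, Pdgfra, Rgs5 and Lum, the last with at most 2 reads in a female-labelled library. Of 5 mesothelial markers, 4 were tested, and 3 rose and 1 fell. Their sums were level, at 457 to 469 and 424 to 518, but made up of different genes: Msln was at 299 to 358 against 17.1 to 20.6, and Krt19 at 97.8 to 138 against 407 to 498. Wt1 and Upk3b also rose, from at most 3 reads in a male-labelled library. Both reached the minimum of 1 needed for testing only in the female-labelled libraries, as Lum did only in the male-labelled ones. The calls of these genes follow in part from that selection and carry no weight. The 3 hepatocyte markers in the table summed to under 1 in each library. Of 4 macrophage markers 2 were in the table, with sums of 7.36 to 8.30 in the female-labelled and 4.56 to 5.65 in the male-labelled libraries, and Cd68 rose (0.48, limma adjusted p 0.00479) while Ptprc was under 1 in every library. None of the 4 lymphocyte markers was analysed here. Among the 3 cholangiocyte markers Epcam was under 1 in every library, Sox9 fell and Krt7 rose. In these bulk samples fewer cells of a type and less RNA per cell cannot be told apart, and the part that cell makeup has in the results below was not tested.

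**Figure D1:**
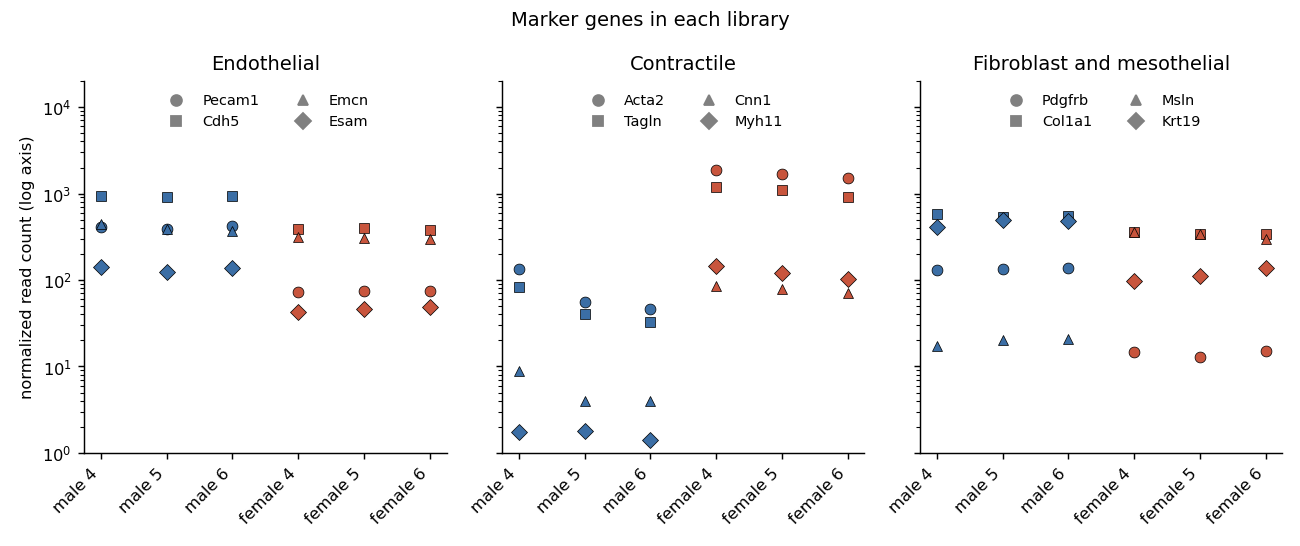
Normalized read count (log axis) of 12 marker genes in each of the 6 libraries, blue for those labelled male and red for those labelled female. The 4 endothelial genes are lower and the 4 contractile genes higher in every library labelled female than in any labelled male, and male-labelled replicate 4 lies above replicates 5 and 6 for Acta2, Tagln and Cnn1.

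Across the 10 genes, 6 rose and 3 fell in the female-labelled libraries, and Tead3 did not pass the test. The 2 coactivators fell, Tead1, Tead2 and Lats2 rose, and the targets split: Ankrd1, Ctgf and Cyr61 rose by the largest amounts while Amotl2 fell. This contrast called 69.3% of all 12568 genes tested, 34.6% higher and 34.6% lower, and the count of 9 of 10 is to be read against that share. Values of the groups did not overlap for any of the 10, which held for 74.1% of all tested genes. The median log2 fold change was 0.44 over the 10 and 0.01 over all tested genes. Without male-labelled replicate 4 the counts were again 6 and 3. The log2 fold changes were then -0.36 for Yap1, 0.73 for Tead1, 0.49 for Tead2, -0.17 for Tead3 (limma adjusted p 0.0977), 0.36 for Lats2 and 3.03 for Ankrd1, and those of the genes in which that library lay apart are given with them.

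**Figure D2:**
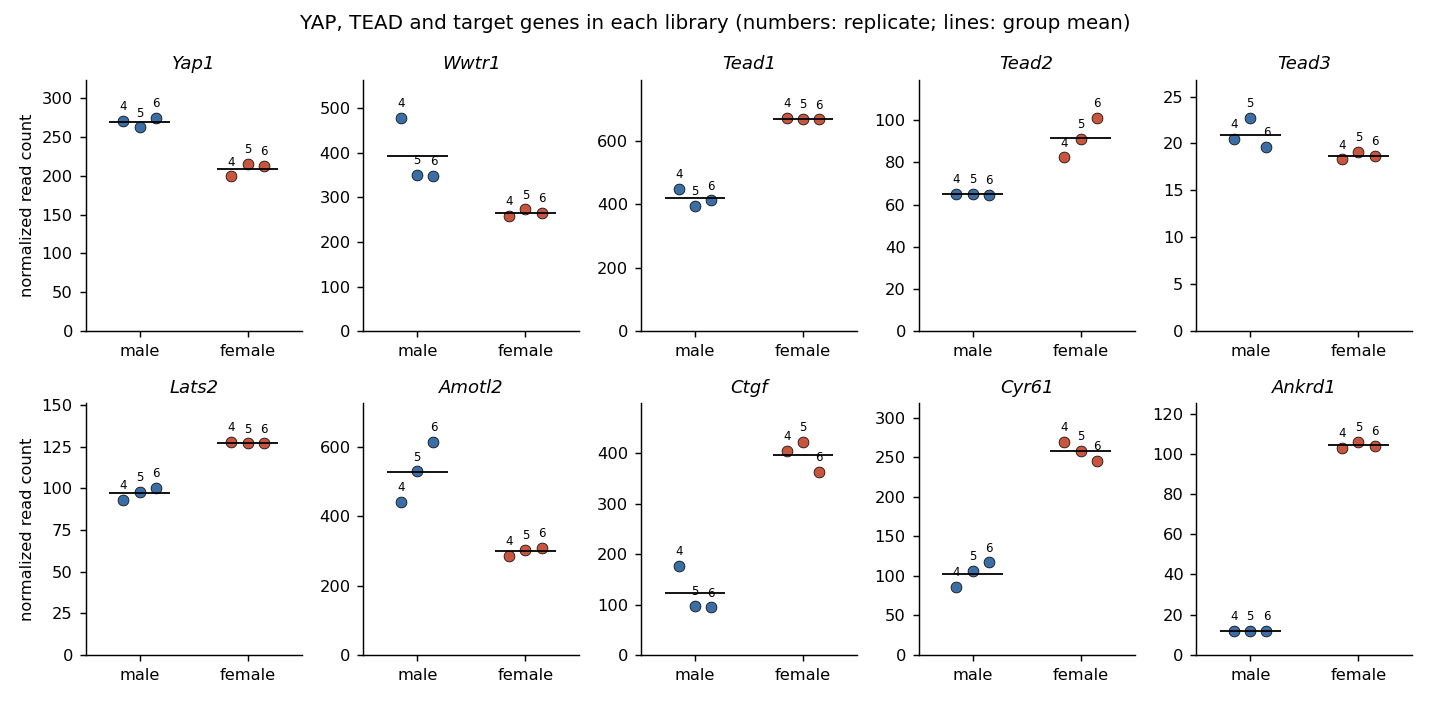
Normalized read count of the 10 genes in each library (vertical axes start at 0), with replicate numbers above the points and a line at each group's mean. Blue points are libraries labelled male and red points those labelled female; the groups are apart in all 10 panels, least so for Tead3.

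The coactivators were both expressed in every library and both lower in the female-labelled ones. Yap1 (chromosome 9) was at 270.1, 262 and 274 in male-labelled replicates 4, 5 and 6, and at 199, 215 and 212 in the female-labelled replicates in the same order. All 3 female-labelled libraries lay under all 3 male-labelled ones, and both groups were tight. The mean fell from 268 ± 6.13 to 208 ± 8.51 (SD, n = 3), 77.6% of the male-labelled level. The log2 fold change was -0.36 (95% confidence interval -0.50 to -0.23, limma adjusted p 0.000543). Fold changes here and below are on the log2(value + 1) scale.

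Wwtr1 (chromosome 3), which encodes TAZ, was at 478, 351 and 349 in the male-labelled libraries and at 258, 273 and 266 in the female-labelled ones. Male-labelled replicate 4 was the highest of the 6 and lay 1.36 times above the mean of the other two of its group. The groups had means of 393 ± 73.7 and 265 ± 7.41 (SD, n = 3), and the log2 fold change was -0.55 (95% confidence interval -0.82 to -0.28, limma adjusted p 0.00301). Without that library the difference was smaller, at -0.40, and still passed the test (limma adjusted p 2.04e-05).

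The promoter table from RefSeq (GRCm38.p6), which spans 250 bases before to 50 bases after a gene's start, holds 8 of the 10 genes, and the most upstream start of each gene was used. Neither Ctgf nor Tead1 is in it. A match to GGAATG on either strand was present in 7 of the 8, all but Tead2, whereas 14.7% of all 27025 promoters of that length hold one. Such a match describes the letters and is not a site of binding. The stretches around the matches of both coactivators and of Tead3 are shown because they carry the motif read by the factors they work with. Counted from the start, the matches begin at base -141 in Yap1 (chr9:8004720-8004749, minus strand), at -136 in Wwtr1 (chr3:57576029-57576058, minus strand) and at -182 in Tead3 (chr17:28350970-28350999, minus strand), with the motif in capitals.
Yap1: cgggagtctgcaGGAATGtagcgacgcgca
Wwtr1: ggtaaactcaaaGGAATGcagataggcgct
Tead3: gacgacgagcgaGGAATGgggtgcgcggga

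The TEAD factors did not move as one. Tead1 (chromosome 7) was at 448, 394 and 412 in the male-labelled libraries and at 671, 669 and 667 in the female-labelled ones. Its female-labelled values were nearly equal and all far above the male-labelled range. The mean rose from 418 ± 27.2 to 669 ± 1.81 (SD, n = 3), 1.60 times, for a log2 fold change of 0.68 (95% confidence interval 0.53 to 0.83, limma adjusted p 2.79e-05).

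Tead2 (chromosome 7) was at 64.9, 65.1 and 64.5 in the male-labelled libraries and 82.4, 91.1 and 101 in the female-labelled ones. Here the spread lay on the female-labelled side, with each of its values above the male-labelled group. The rise from 64.8 ± 0.310 to 91.6 ± 9.49 (SD, n = 3) corresponded to a log2 fold change of 0.49 (95% confidence interval 0.30 to 0.67, limma adjusted p 0.000724).

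Tead3 (chromosome 17), the weakest of the 3, was at 20.5, 22.7 and 19.6 against 18.3, 19.1 and 18.7. The groups did not overlap but came within 1 unit of each other. With means of 20.9 ± 1.59 and 18.7 ± 0.375 (SD, n = 3), its log2 fold change of -0.15 did not pass the test (95% confidence interval -0.35 to 0.04, limma adjusted p 0.136). The interval of Tead3 lies wholly below those of Tead1 and Tead2, though the difference between these genes was not itself tested. Tead4, the remaining family member, rose from 13.2 ± 0.325 to 19.1 ± 1.70 (SD, n = 3, log2 fold change 0.49, limma adjusted p 0.00144).

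Both inhibitors of the set are also known as YAP and TAZ targets, and they moved in opposite directions. Lats2 (chromosome 14), a kinase that phosphorylates YAP and TAZ, was at 93.1, 97.8 and 100.1 in the male-labelled libraries and at 128, 127 and 127 in the female-labelled ones. The groups were clear of each other, and the female-labelled values were almost the same. Its log2 fold change was 0.39 (means 97.0 ± 3.58 and 127 ± 0.414, SD, n = 3, 95% confidence interval 0.26 to 0.52, limma adjusted p 0.000334). Lats2 shares 41.2% of its 50-base stretches with Gm49361, an annotated gene model on the same strand, so that part of its reads may belong to either. The corresponding share was at most 0.548% for the other 9 genes.

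Amotl2 (chromosome 9), an angiomotin that binds YAP, was at 440.4, 529.6 and 615 in the male-labelled libraries and at 285, 303 and 309.9 in the female-labelled ones. The male-labelled values were widely spread, with replicate 4 the lowest, and all exceeded the female-labelled values. The mean fell from 528 ± 87.4 to 299 ± 12.7 (SD, n = 3), 56.7% of the male-labelled level, a log2 fold change of -0.81 (95% confidence interval -1.06 to -0.55, limma adjusted p 0.000279). Without male-labelled replicate 4 it was -0.93. Amotl2 was the sole target among the 10 genes to fall.

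The other targets, Ankrd1, Ctgf and Cyr61, rose by more than any other of the 10 genes. Ankrd1 (chromosome 19), which encodes a stretch-responsive ankyrin repeat protein of muscle and other cells, was at 11.8, 11.9 and 11.8 in the male-labelled libraries and at 103, 106 and 104 in the female-labelled ones. Within each group the values were nearly equal. The mean rose 8.80 times, from 11.8 ± 0.0964 to 104 ± 1.37 (SD, n = 3), and its log2 fold change was 3.03 (95% confidence interval 2.89 to 3.18, limma adjusted p 1.42e-08). Only 1.64% of tested genes had a larger change in either direction.

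Ctgf (chromosome 10), a secreted matrix-associated CCN protein and one of the most used readouts of YAP, was at 176, 96.7 and 94.4 in the male-labelled libraries and at 405, 423 and 363 in the female-labelled ones. Male-labelled replicate 4 was 1.84 times the mean of the other two of its group and still under all female-labelled values. Its mean rose 3.25 times, from 122 ± 46.6 to 397 ± 30.8 (SD, n = 3), and its log2 fold change was 1.75 (95% confidence interval 1.26 to 2.24, limma adjusted p 0.000130). Without that library the log2 fold change was 2.04 (limma adjusted p 4.83e-09). Along 826 bases of its exons Ctgf overlaps Gm15270, annotated on the opposite strand, and whether the counting used strand is not given in the sources used here.

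Cyr61 (chromosome 3), the second CCN protein of the set and a ligand of integrins, was at 85.6, 106 and 117 in the male-labelled libraries and at 269.7, 258 and 246 in the female-labelled ones. In contrast to Ctgf, male-labelled replicate 4 was here the lowest library of all. The mean rose 2.50 times, from 103 ± 16.2 to 258 ± 11.6 (SD, n = 3), and the log2 fold change was 1.33 (95% confidence interval 1.08 to 1.58, limma adjusted p 1.24e-05), or 1.20 when that library was left out. The contractile genes Acta2, Tagln and Cnn1 were higher in the same libraries as these 3 targets, and among male-labelled libraries highest in replicate 4, as Ctgf was and Cyr61 and Ankrd1 were not. Myh11, also contractile, rose too but was at 1.74, 1.79 and 1.41 in the male-labelled libraries, and other genes of the same marker list fell, among them Pdgfrb (-3.13) and Rgs5 (-2.17). Their part in the rise of the targets was not tested.

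The sequences before the starts of Ankrd1, Cyr61 and Amotl2, and the stretch around the start of Lats2, are shown because these targets went in both directions while each holds the TEAD core. Ankrd1 holds 2 matches, which begin at bases -210 and -123 from its start, whereas 1.37% of all promoters hold 2 or more. In Cyr61 the match spans bases -103 to -98 and in Amotl2 bases -65 to -60, both on the opposite strand and thus read as the reverse complement, and in Lats2 it begins at base 5 after the start. The regions are chr19:36119845-36120094 (minus strand) for Ankrd1, chr3:145649986-145650235 (minus strand) for Cyr61, chr9:102717554-102717803 (plus strand) for Amotl2 and chr14:57746102-57746131 (minus strand) for Lats2, all in GRCm38.p6 from RefSeq, with matches in capitals.
Ankrd1: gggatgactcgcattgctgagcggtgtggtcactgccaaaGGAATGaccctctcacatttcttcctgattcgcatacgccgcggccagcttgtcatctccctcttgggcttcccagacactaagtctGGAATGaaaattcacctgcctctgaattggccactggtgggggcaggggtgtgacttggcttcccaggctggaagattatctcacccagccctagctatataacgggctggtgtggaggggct
Cyr61: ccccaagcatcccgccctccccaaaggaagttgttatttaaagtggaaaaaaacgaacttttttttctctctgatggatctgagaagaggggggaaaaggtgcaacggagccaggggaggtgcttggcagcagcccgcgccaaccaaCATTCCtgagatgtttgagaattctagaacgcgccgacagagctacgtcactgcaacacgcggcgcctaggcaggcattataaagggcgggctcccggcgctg
Amotl2: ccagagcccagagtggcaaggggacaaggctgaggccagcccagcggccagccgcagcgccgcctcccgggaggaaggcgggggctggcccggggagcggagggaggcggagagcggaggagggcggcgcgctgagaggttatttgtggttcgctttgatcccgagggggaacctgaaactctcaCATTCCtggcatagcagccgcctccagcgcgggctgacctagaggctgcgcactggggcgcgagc
Lats2: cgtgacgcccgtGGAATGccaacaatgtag

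**Figure D3:**
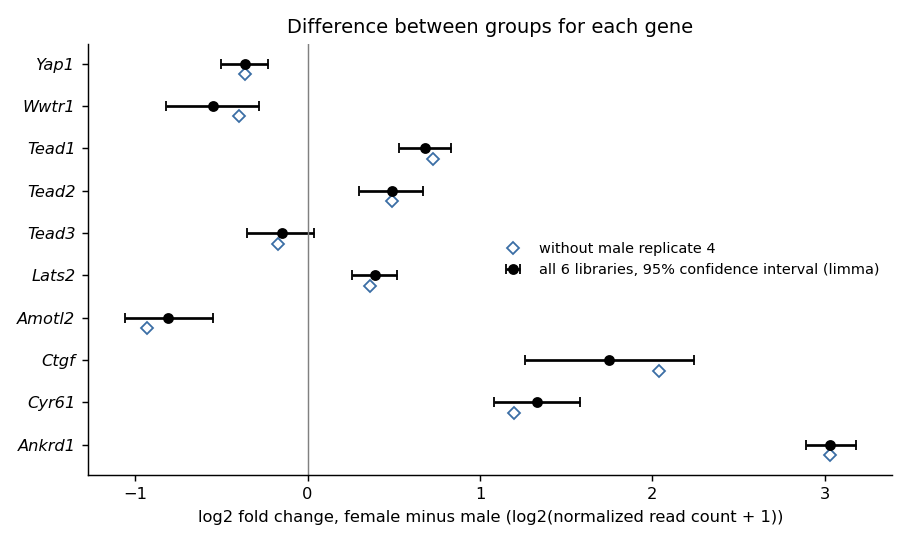
Log2 fold change of each gene, female-labelled minus male-labelled libraries, with its 95% confidence interval from limma (black) and the value without male-labelled replicate 4 (open diamonds). Of the 10 intervals, that of Tead3 alone crosses 0, and Ankrd1 lies farthest from 0 at 3.03.

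Ankrd1, Ctgf and Cyr61 were also the 3 genes of the set that passed when a log2 difference of 1 or more in size was required as well, a rule met by 20.6% of all tested genes. Of the 10 genes, 4 had in the authors' deposited table a false discovery rate under 0.05, against 25.8% of all its genes. Those were Ankrd1 (authors' deposited fold change 8.80), Ctgf (3.25), Cyr61 (2.50) and Amotl2 (-1.77, a signed fold in which a minus marks a lower female-labelled level). The authors' deposited false discovery rate was 0.345 for Yap1, 0.126 for Wwtr1, 0.144 for Tead1, 0.306 for Tead2 and 0.300 for Lats2, which are called by limma here.

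Levels of different genes were compared per kb of their longest coding transcript in GENCODE M21 (GRCm38). In the male-labelled libraries Amotl2 was the highest of the 10, at 122 ± 20.2 normalized reads per kb (SD, n = 3), followed by Wwtr1 (83.6 ± 15.7), which it met at 102 in replicate 4, and Yap1 (64.3 ± 1.47), which lay under every Wwtr1 value. Cyr61 (42.4 to 58.2 over the libraries), Ctgf (37.9 to 70.7) and Tead1 (39.6 to 44.9) came next. These 3 overlapped one another, and Ctgf in replicate 4 also lay above every Yap1 value (62.7 to 65.6), so their order is not firm. Far below, Tead3 (7.54 ± 0.573) and Ankrd1 (5.85 ± 0.0477) were the lowest. The female-labelled order was led by Ctgf (159.6 ± 12.4) and Cyr61 (128 ± 5.76), which did not overlap with each other or with Amotl2 (69.2 ± 2.94). Ankrd1 stood sixth at 50.9 to 52.3, overlapping Yap1 at 47.6 to 51.5, and Tead3 was last at 6.73 ± 0.135. With lengths from the union of all exons Ctgf and Cyr61 again led the female-labelled order, in which Amotl2 moved from the third to the fifth place. In the male-labelled order Amotl2 (70.0 to 97.8) and Wwtr1 (73.1 to 100.0) then overlapped, and Yap1 moved from the third to the sixth place.

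The coactivators and the TEAD factors moved apart in their summed levels. Yap1 and Wwtr1 together stood at 166, 137 and 140.0 per kb in male-labelled replicates 4, 5 and 6 and at 102, 109 and 107 in the female-labelled libraries. Tead1 to Tead4 together stood at 75.7, 71.3 and 71.5 against 105, 107 and 109.5. The groups did not overlap in either sum, one being lower and the other higher in the female-labelled libraries. The ratio of TEAD to coactivator transcripts was thus 0.495 ± 0.0350 in the male-labelled and 1.01 ± 0.0281 in the female-labelled libraries (SD, n = 3), and 0.464 and 0.981 with exon union lengths. Tead1 was the main family member in each library, with 57.5% ± 1.93 of the TEAD sum in the male-labelled and 62.7% ± 1.50 in the female-labelled group. Tead3 made up 10.4% ± 0.957 and 6.29% ± 0.150, while the shares of Tead2 and Tead4 overlapped between groups. With exon union lengths the mean Tead3 shares were 6.11% and 3.64%, under those of Tead4 (7.20% and 6.94%). The ratio of Wwtr1 to Yap1 per kb overlapped too, at 1.57, 1.19 and 1.13 against 1.15, 1.13 and 1.11, with male-labelled replicate 4 the highest. Its size depends on the lengths used, as exon union lengths gave means of 2.83 and 2.47, again with overlap. These sums and ratios are descriptions without a test.

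**Figure D4:**
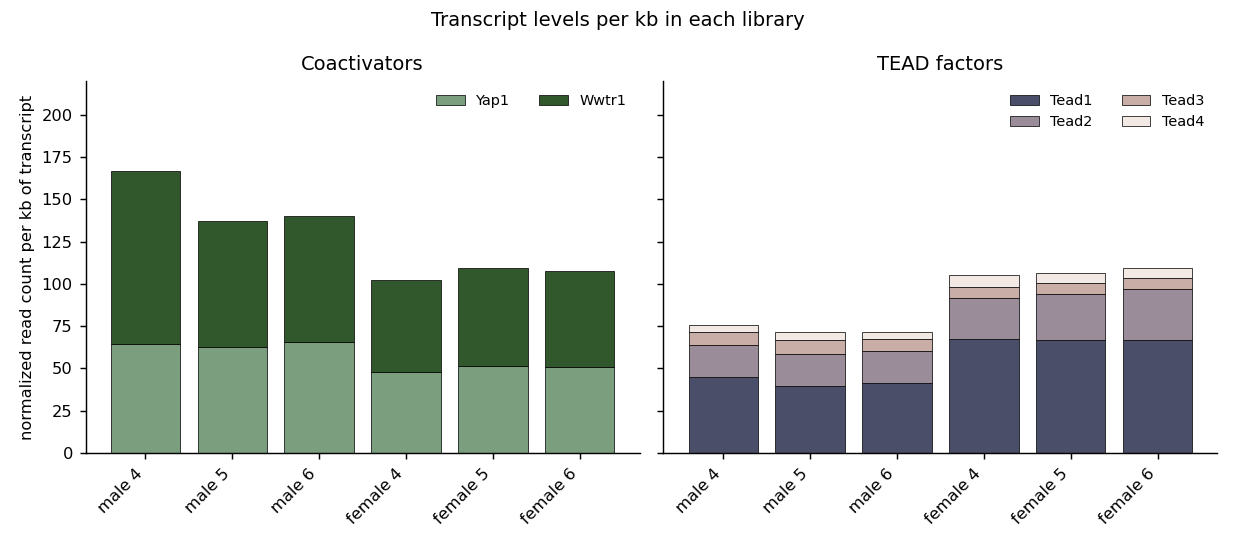
Stacked bars of normalized read count per kb of the longest coding transcript for the 2 coactivators (left) and the 4 TEAD factors (right) in each library. The coactivator stack runs from 137 to 166 in libraries labelled male and from 102 to 109 in those labelled female, whereas the TEAD stack is higher in those labelled female.

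Other genes of the Hippo pathway were read from 3 lists with 33 genes in all, of which 20 rose, 9 fell and 4 did not pass the test. With 69.3% of all tested genes called, 34.6% in each direction, neither these counts nor those of the single lists below are read as particular to the pathway. Their median log2 fold changes were 0.40 for the core kinases and their scaffolds, 0.82 for upstream regulators and 0.32 for inhibitors of LATS or MST, against 0.01 for all tested genes. Of the 6 core genes, Stk4 (encoding MST1) rose most, from 31.9 ± 7.48 to 90.5 ± 1.16 (SD, n = 3, log2 fold change 1.50, limma adjusted p 2.42e-05). Mob1b, Stk3 and Mob1a, the last with a log2 fold change of 0.33, rose as well. The MST scaffold Sav1 was the core gene that fell (-0.60). Lats1, the paralog of Lats2, was at 150.0, 127 and 122 against 149, 154 and 151 and did not pass (0.19, limma adjusted p 0.0641), but passed without male-labelled replicate 4 (0.28, limma adjusted p 0.000330).

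Upstream of the kinases, 12 of 19 genes rose and 6 fell, with the same counts without male-labelled replicate 4. Amot, the founding angiomotin and a paralog of Amotl2, rose 13.3 times, from 7.11 ± 0.460 to 94.2 ± 1.69 (SD, n = 3, log2 fold change 3.56, limma adjusted p 1.50e-08). It thus went the opposite way to Amotl2, and Amotl1 rose too (0.86, limma adjusted p 0.000296). The scaffolds Wwc1 (1.79) and Wwc2 (1.23), the atypical cadherin Fat1 (1.21) and the kinase gene Taok1 (1.21) were the next largest rises. Dchs1, which encodes a cadherin that binds FAT4, fell most, from 21.5, 26.2 and 27.2 to 2.61, 1.90 and 2.75 (log2 fold change -2.92, limma adjusted p 5.68e-07). Map4k2 (-1.31), the polarity gene Llgl1 (-1.02), Taok3 and Frmd6 (both -0.51) followed. The merlin gene Nf2 rose by a log2 fold change of 0.33, and Ptpn14, named for being the single gene of this list not called, was at 726, 419.7 and 435 against 406, 412 and 437.

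Genes for inhibitors of LATS or MST were mixed, with 4 of 8 higher and 2 lower, and 6 higher and 2 lower without male-labelled replicate 4, where Slmap and Strn4 also passed. Ajuba, a LIM protein that binds LATS, rose from 7.17 ± 0.195 to 53.4 ± 3.01 (SD, n = 3, log2 fold change 2.73, limma adjusted p 6.61e-08). Its relatives Limd1 (-0.69) and Wtip (-0.61) fell. Of the STRIPAK phosphatase complex, which acts on MST, Strn (1.10), Strn3 (0.59) and Mob4 (0.41) rose. Among cofactors that compete with YAP and TAZ for TEAD, Vgll3 rose 17.0 times, from 9.18 ± 0.261 to 156 ± 5.59 (SD, n = 3, log2 fold change 3.94, limma adjusted p 5.48e-09), and Vgll4 fell (-1.11, limma adjusted p 1.42e-05). Vgll1 and Vgll2 were not analysed here.

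**Figure D5:**
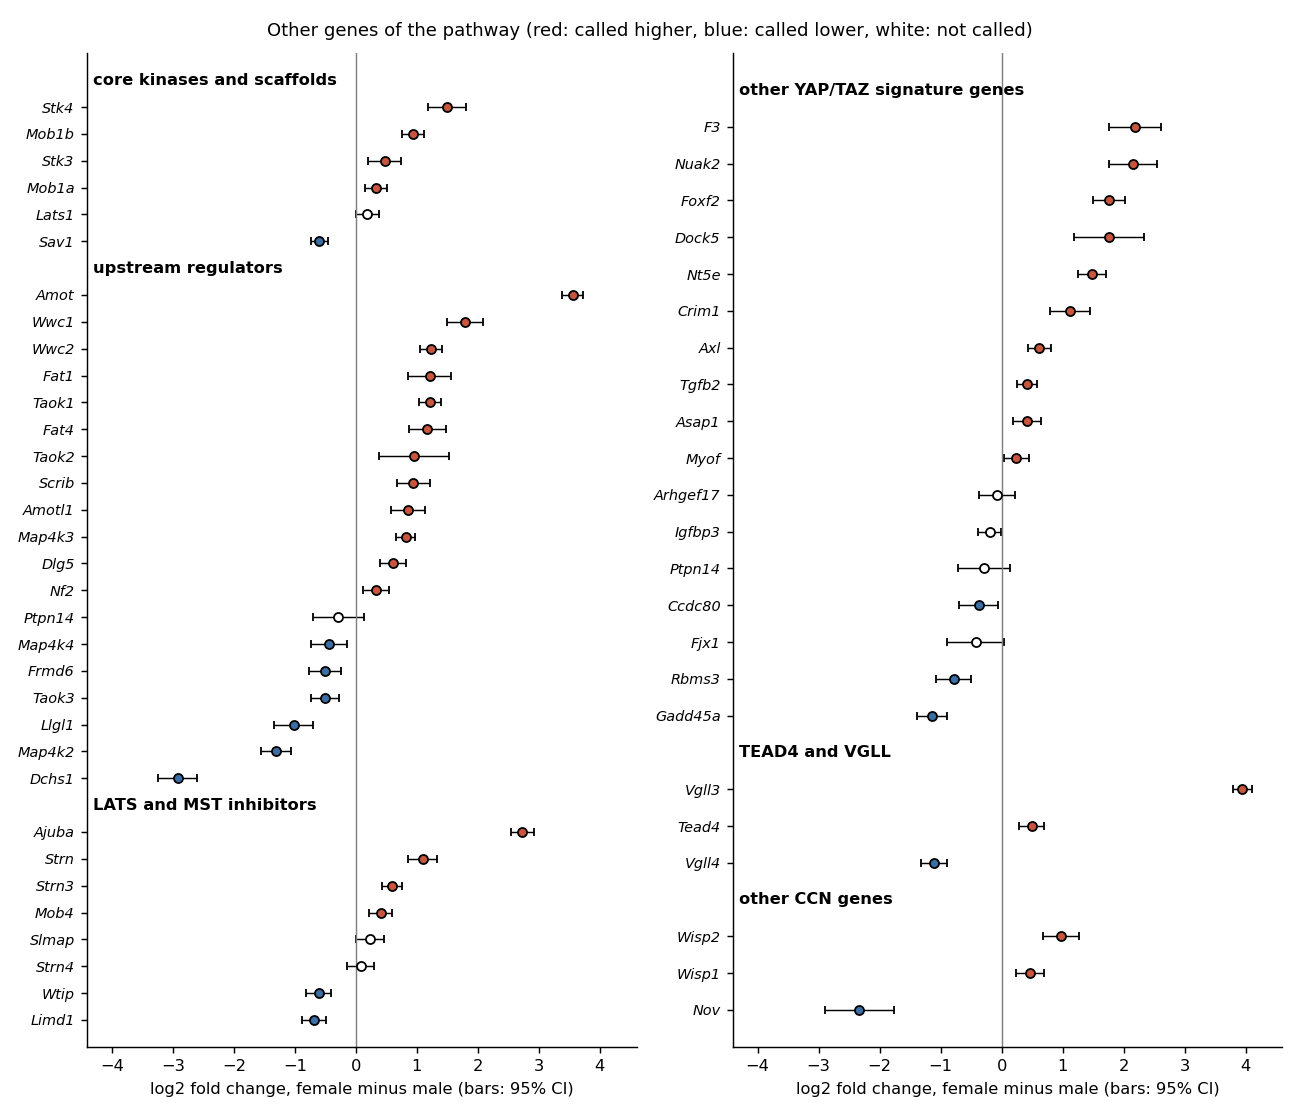
Log2 fold change (female-labelled minus male-labelled, with 95% confidence intervals from limma) of the Hippo pathway genes (left) and of the other YAP/TAZ signature, TEAD partner and CCN genes (right). Red, blue and white points are genes called higher, called lower and not called; Vgll3 (3.94) and Amot (3.56) lie farthest to the right and Dchs1 (-2.92) farthest to the left.

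Further targets were taken from a 22-gene signature of YAP and TAZ activity, derived in human cancers, of which Ctgf, Cyr61, Ankrd1, Amotl2 and Lats2 are 5. Among the other 17 genes 10 rose and 3 fell, with a median log2 fold change of 0.41, beside 69.3% of all tested genes called, 34.6% in each direction. Nothing particular to the signature is read from these counts. Without male-labelled replicate 4 the counts were 10 and 5, as Igfbp3 (-0.25) and Fjx1 (-0.62) then also passed. Of the genes counted, Myof (0.24) missed the threshold with the replicate block (limma adjusted p 0.0546), with edgeR (adjusted p 0.0519) and in 5 of the 6 fits without 1 library, and Ccdc80 missed it without any one of the female-labelled libraries (limma adjusted p 0.0761 to 0.102). The largest rises on the log2(value + 1) scale were those of F3, Nuak2, Foxf2 and Dock5. F3, which encodes tissue factor, the initiator of coagulation, was at 33.1, 58.2 and 53.2 in the male-labelled libraries and 237, 199 and 212 in the female-labelled ones, a log2 fold change of 2.18 (limma adjusted p 1.61e-05). Nuak2, a kinase gene, was at 2.61, 1.49 and 1.41 against 10.2, 12.8 and 11.3 (2.15, limma adjusted p 1.08e-05). In both genes the groups were well apart.

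Foxf2, a forkhead factor of mesenchyme and pericytes, was scarcely read in the male-labelled libraries, at 0.124, 0.267 and 0.141, and was at 2.78, 3.18 and 2.99 in the female-labelled ones (1.76, limma adjusted p 3.56e-06). At such low values the added 1 compresses the difference, which was 3.51 with a pseudocount of 0.1 and 4.02 with edgeR on recovered reads. Foxf2 reached the minimum of 1 needed for testing only in the female-labelled libraries. Its call, counted among the rises, follows in part from that selection and carries no weight. Dock5 rose from 34.0 ± 15.7 to 109.9 ± 6.33 (SD, n = 3, 1.75, limma adjusted p 0.000322). The fallen genes were Gadd45a (-1.14), a DNA damage response gene, Rbms3 (-0.79) and Ccdc80 (-0.38, limma adjusted p 0.0376, and -0.20 without male-labelled replicate 4). Those not called were Ptpn14, Arhgef17, Igfbp3 and Fjx1. Over all 22 genes 14 rose and 4 fell, and 4 were not called, beside 69.3% of all tested genes called, 34.6% in each direction. Without male-labelled replicate 4 the counts over the 22 were 14 and 6.

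Genes with the most similar pattern were sought by the root mean square difference between mean-centred log2 values over the 6 libraries. For Ctgf the nearest was Dock5 (0.0792), itself a signature gene, at 52.1, 26.1 and 23.7 in the male-labelled and 117, 109 and 104 in the female-labelled libraries. Second came Map2 (0.0916), a microtubule-associated protein gene. Both share the high value in male-labelled replicate 4. Cyr61 was nearest to Slc25a13 (0.0338), a mitochondrial carrier gene, and Wdr47 (0.0482), in which male-labelled replicate 4 is the lowest library. Yap1 was closest to Snx1 (0.0233) and Ethe1 (0.0263), and Wwtr1 to Acss2 (0.0371) and Pkp2 (0.0392). None of these 4 had another of the 10 as its nearest gene, and the other 6 were not examined in this way. For example, of the 12568 tested genes searched, 842 lay nearer to Ctgf than Cyr61, its closest of the set (0.474). In the same search 904 lay nearer to Wwtr1 than Yap1 (0.173).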

How the data were processed

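The 6 libraries of indoxyl sulfate-treated hypoxic liver CD31-positive cells were compared by labelled sex. Per the submitters' processing notes, Bowtie2, RSEM and edgeR were used on mm39, while their roles, versions and annotation are not given in the sources used here. As signal the table holds deposited normalized read counts, which the authors scaled by 1 factor per library from whole reads: 100% of values in each column were whole multiples (within 0.01) of its smallest value above 0. Per the file headers, a further score column holds a signed fold change by the authors, and deposited p-value columns hold p and FDR. Library totals are recovered reads. At this depth 3 reads are worth 0.106 to 0.142.

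Because values are normalized, limma 3.58.1 (eBayes with trend, R 4.3.3) was fitted to log2(value + 1) over the 12568 genes that reached 1 in 3 or more libraries, with Benjamini-Hochberg adjustment over all of them and a threshold of 0.05. Called, rose and fell refer to this test. The procedure was tested on simulated reads. The 10 genes and the lists were chosen with earlier results of these data known, and some genes of the lists are not reported here. Genes to name were the 10, in each list of more than 4 tested genes the called genes with up to 4 largest rises and 4 largest falls, all genes of smaller lists, the 2 genes nearest in pattern to Yap1, Wwtr1, Ctgf and Cyr61, and sex-linked checks. Other genes named were chosen after their values were seen. Alternatives were median-ratio scaling, quantile normalization, a pseudocount of 0.1, no filter, a minimum of 10 reads per gene and library, edgeR 4.0.16 and DESeq2 1.42.0 on recovered reads, a replicate block, each library left out, and a minimum log2 change of 1. Exon union lengths were added after seeing the data.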

Additional observations from a re-analysis of the deposited data

How the results depend on the processing

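All 10 genes kept their direction and their side of the threshold in each of the 140 values recomputed for them, over 14 alternatives a gene. Across the alternatives that used all 6 libraries the log2 fold change of Ankrd1 ran from 3.02 to 3.13, that of Ctgf from 1.69 to 1.81, that of Wwtr1 from -0.57 to -0.45 and that of Tead3 from -0.17 to -0.09. Leaving out 1 library gave 1.60 to 2.04 for Ctgf, -0.62 to -0.40 for Wwtr1 and -0.93 to -0.69 for Amotl2. With a minimum absolute log2 fold change of 1, by construction, 2589 genes were called and, of the 10, 3 higher and 0 lower. For the count of lower genes of that size limma also gave 0 at an unadjusted p under 0.05, and edgeR and DESeq2 gave 0. This was fixed in advance, because the largest fall of the 10 in any fit with all libraries was -0.83 (Amotl2). The other alternatives with all libraries called 8236 to 9085 genes, with edgeR on recovered reads calling 8651 and DESeq2 8558. Fits without 1 library called 7373 to 9113, and each gave 6 higher and 3 lower among the 10. With the replicate block 8314 genes were called and the counts of 6 and 3 were again found. Same-numbered libraries did not deviate together (correlations of -0.0936, -0.0303 and -0.1701 across genes), so the numbers were not taken to pair them. For the other tested genes of the lists, the sex-linked genes and those alike in pattern, 98 genes in all, 1327 of 1352 values kept direction and call. The call was lost in 11, of Myof (7), Ccdc80 (3, each without a female-labelled library, -0.37 to -0.40) and Map4k4 (1), and gained in 12, of Igfbp3 (5), Lats1, Slmap and Fjx1 (2 each) and Strn4 (1), including for each of these 5 genes the fit without male-labelled replicate 4. The sign turned for Arhgef17 without that library and for Ddx3y without male-labelled replicate 5. Fits without 1 library gave -0.17 to 0.09 and -0.21 to 0.13, and neither gene was called in any fit. Exon union lengths moved the ratio of Wwtr1 to Yap1 per kb to 2.83 in the male-labelled and 2.47 in the female-labelled libraries, and the Tead1 share to 60.2% and 64.4%. Depth does not limit the 10 genes, the lowest of which (Ankrd1) had 284 reads in 1 library.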

Other observations

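The CCN family outside the set was also split. Nov (Ccn3), which encodes a CCN protein often opposed in expression to Ctgf, was at 18.7, 11.4 and 10.7 in the male-labelled libraries and at 1.12, 1.86 and 2.66 in the female-labelled ones. It fell, with a log2 fold change of -2.34 (limma adjusted p 5.44e-05), in the libraries where Ctgf and Cyr61 were high. Wisp1 (Ccn4) rose from 17.8 ± 1.57 to 24.9 ± 2.53 and Wisp2 (Ccn5) from 3.60 ± 0.339 to 8.03 ± 1.21 (SD, n = 3), with log2 fold changes of 0.47 and 0.97 (limma adjusted p 0.00368 and 0.000213). Wisp3 was not analysed here.

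Other motifs were searched on both strands of the same 8 promoters. The AP-1 sequence TGANTCA was in 0 of the 8 and in 7.92% of all 27025 promoters, and the CArG box of serum response factor was in 0 and in 1.59%. ACGTG, one form of the core bound by hypoxia-inducible factors, was in 2 (Yap1 and Lats2, where the matches on both strands overlap) and in 19.6% of all. GCGTG, the core bound by the aryl hydrocarbon receptor and the other form bound by hypoxia-inducible factors, was in 3 (Cyr61, Wwtr1 and Yap1) and in 32.5% of all. A missing match says only that these letters are not in this window.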
